A study of Mus musculus with 8 samples.

Results

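The cytochrome P450 genes were taken as all genes of the count tables whose symbol is Cyp, a family number, a subfamily letter and a gene number, leaving out Cyp7a1, Cyp7b1, Cyp8b1 and Cyp27a1, which belong to bile acid synthesis. Of 55487 gene identifiers, 93 had such a symbol and 89 remained, in 34 subfamilies. Symbols that end in a further letter (Cyp4a12a, Cyp4a12b), Cyp51 and pseudogenes were outside this rule. A count in at least 1 liver was found for 74 of the 89 genes, and 57 were expressed highly enough to be tested. The livers came from 4 Control mice (Mc1r fl/fl, without Cre, numbered 154, 159, 181 and 193) and 4 Mc1r LKO mice (Mc1r fl/fl carrying Alb Cre/+, numbered 141, 156, 157 and 182), all males that received a cholesterol-rich Western diet for 12 weeks from 8 weeks of age. The Cre transgene is driven by the albumin promoter, which is active in hepatocytes, and recombination in other liver cells was not measured here. Poly(A) RNA was sequenced from each liver with a stranded kit. Values per liver are given below in the order of these mouse numbers. The expression of Mc1r, the melanocortin receptor targeted in these mice, was 0 counts in all 8 libraries, so the genotype could not be checked from these data.

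Cytochrome P450 enzymes are haem proteins that insert an oxygen atom into fatty acids, steroids, retinoids, bile acids and foreign compounds. Those of the endoplasmic reticulum receive electrons from P450 oxidoreductase. In liver, the Cyp1 genes are classical targets of the aryl hydrocarbon receptor, many Cyp2b, Cyp2c and Cyp3a genes of the xenobiotic receptors CAR and PXR, and the Cyp4a genes of PPAR-alpha. Many of them are expressed mainly around the central vein, and several differ between male and female mice under the control of growth hormone secretion.

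The P450 genes took between 1.62% and 2.01% of all counts in each liver, at total counts of 10773151 to 24763375 per library. Per transcript length, in TPM (counts per exon length, scaled to the same total in each liver), the genes together summed to 18241 ± 1562 TPM in Control and 17412 ± 1798 TPM in Mc1r LKO livers (mean ± SD, n = 4 per group), a difference smaller than the SD of either group. Expression was concentrated in few genes. Cyp2e1, which oxidizes ethanol and other small molecules, made up 35.9% of the P450 TPM at a mean of 6405 TPM, followed by Cyp2d26 at 1296 TPM, Cyp2f2 at 1171 TPM, Cyp3a11 at 1161 TPM and Cyp2d9 at 937 TPM. The mean levels of Cyp2d26, Cyp2f2 and Cyp3a11 lay closer together than their ranges over the 8 livers, of which that of Cyp3a11 ran from 529 to 1576 TPM. The 17 genes with the highest levels held 90.7% of the P450 TPM.

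The larger subfamilies lie as arrays of neighbouring genes. The 15 Cyp2c genes lie on chromosome 19, the 8 Cyp2d genes within 424 kb of chromosome 15, the 5 Cyp4a genes within 380 kb of chromosome 4, and the 4 Cyp2a and 5 Cyp2b genes intermingled on chromosome 7 (GRCm38). Some genes are near copies of each other, and this bears on how reads were assigned. In the GENCODE M21 transcripts, the 57 tested genes shared a median of 6.73% of their 50-base windows with another gene. Of these genes, 22 shared more than 10% of their windows and 12 shared none, such as Cyp2c70 and Cyp2c23. Cyp4a14 shared 0.235%. The largest share was 52.8%, for Cyp2c67, with Cyp2c40, Cyp2c69 and Cyp2c68. Reads that matched several genes equally well were not counted, so the levels of such genes are uncertain.

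No P450 gene differed between Mc1r LKO and Control livers at an adjusted p-value under 0.05 (edgeR quasi-likelihood test, Benjamini-Hochberg over 13400 genes). The smallest adjusted p of a P450 gene was 0.734. No gene of the whole transcriptome passed that threshold either (0%), although 901 genes had an unadjusted p under 0.05. DESeq2 also called 0 P450 genes at an adjusted p under 0.05, where the share over all genes was not taken. At an unadjusted p under 0.05 and a log2 fold change of 0.25 or more in size, 3 of the 57 tested P450 genes were called (5.26%), beside 5.31% of all genes tested. Of these, Cyp4a14 and Cyp2c68 were higher in Mc1r LKO livers (2 genes, against 2.64% of all genes called higher), and Cyp3a11 was lower (1 gene, against 2.66% called lower). The share of P450 genes called was therefore close to that of the transcriptome. With library size only in place of TMM, 5 were called, 1 higher and 4 lower, beside 4.99% of all genes called, 1.26% higher and 3.73% lower. For 0 of the 57 genes did the 2 groups have levels that did not overlap, beside 4.16% of all genes. The fitted log2 fold change was above 0 for 30 P450 genes (52.6%, against 47.9% of all genes) and below 0 for 27. Its median was 0.038 for the P450 genes and -0.011 for all genes, and the median of its absolute value was 0.17 and 0.13. The log2 fold changes ran from -0.83 for Cyp3a59 to 0.88 for Cyp4a14, and 35 genes had an absolute value under 0.25.

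**Figure D1:**
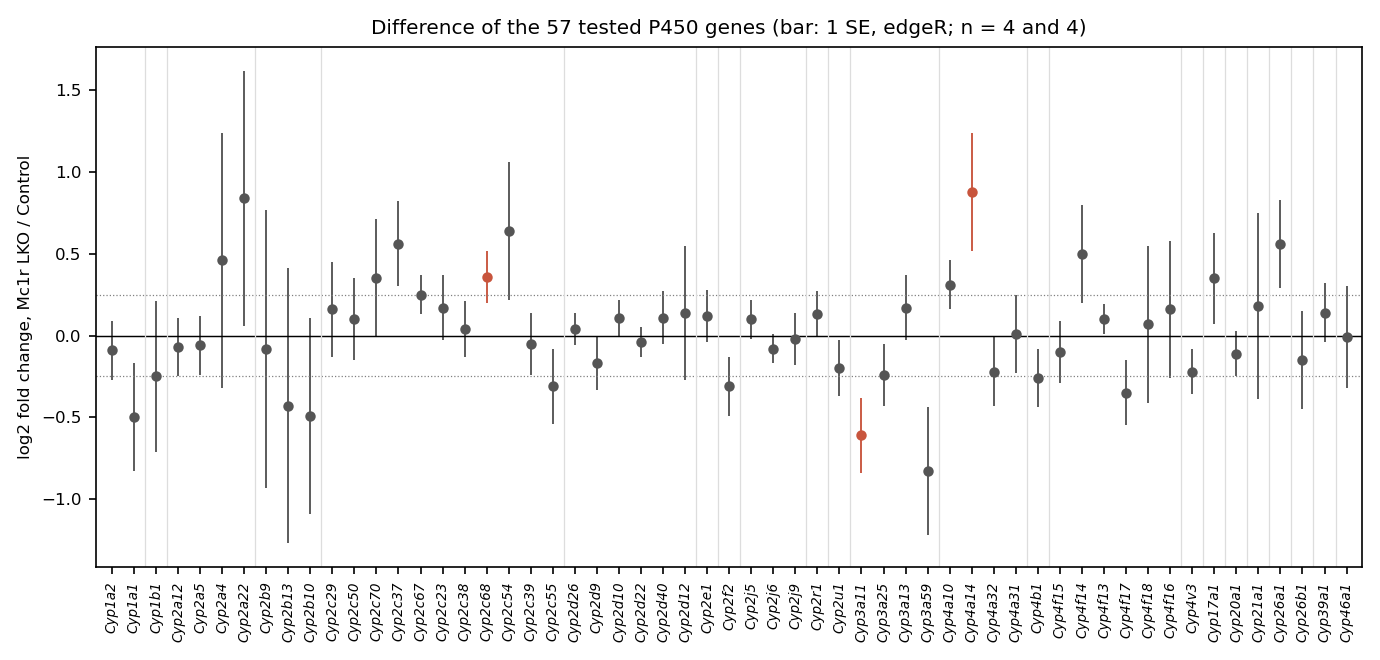
Log2 fold change of Mc1r LKO over Control livers for the 57 tested P450 genes, ordered by subfamily and, within it, by mean TPM. Points are the edgeR estimates, bars 1 SE, dotted lines a log2 fold change of 0.25 in either direction, and the 3 genes called at the unadjusted threshold are in red. Estimates run from -0.83 to 0.88, and the widest bars belong to Cyp2b9, Cyp2b13, Cyp2a4 and Cyp2a22.

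In the Cyp1 family, which oxidizes polycyclic aromatic compounds, caffeine and oestrogens, Cyp1a2 was the main gene. Its level was 105, 193, 127 and 141 CPM (counts scaled by TMM to a common library size) in Control livers and 113, 132, 125 and 162 CPM in Mc1r LKO livers. The groups overlapped throughout (log2 fold change -0.09, SE 0.18). Cyp1a1 and Cyp1b1 were near 1 CPM, with log2 fold changes of -0.50 (SE 0.33) and -0.25 (SE 0.46). All 3 genes of this family were fitted lower in Mc1r LKO livers, where 47.9% of all genes were fitted higher. Of the 3, 0 were called (against 5.31% of all genes).

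The Cyp3a genes encode enzymes of broad specificity that hydroxylate steroids, bile acids and drugs. Cyp3a11, a standard PXR target, was the only gene of the family called. Its level was 2399, 3063, 3275 and 3088 CPM in Control livers and 2794, 2187, 1526 and 1246 CPM in Mc1r LKO livers. Of the Mc1r LKO livers, 3 lay below every Control liver, whereas mouse 141 lay within the Control range. The group means were 2956 ± 383 and 1938 ± 693 CPM (SD, n = 4 per group). The log2 fold change was -0.61 (SE 0.23) with an unadjusted p of 0.0235 and an adjusted p of 0.734 by edgeR's quasi-likelihood test. The call was lost when Control mouse 181 (-0.55), Mc1r LKO mouse 157 (-0.50) or the pair 181 and 182 (-0.39) was left out. In these bulk livers, fewer cells of a type and less RNA per cell cannot be told apart.

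The other tested Cyp3a genes did not pass the threshold. Cyp3a25, the next in level, was at 674 ± 167 CPM in Control and 571 ± 119 CPM in Mc1r LKO livers (SD, n = 4), with a log2 fold change of -0.24 (SE 0.19). Cyp3a13 was at 96.3 ± 12.8 and 108 ± 36.1 CPM, with a log2 fold change of 0.17 (SE 0.20). Cyp3a59, chosen for description after its values were seen, shared 30% of its windows with Cyp3a25 and Cyp3a57. It was at 28.1, 34.2, 102 and 56.0 CPM in Control and 24.5, 22.6, 27.2 and 49.8 CPM in Mc1r LKO livers. Mouse 181 held its highest level and mouse 182 the highest of the Mc1r LKO group (log2 fold change -0.83, SE 0.39, unadjusted p = 0.0606 by edgeR). Summed over the 7 genes, Cyp3a levels were 1954, 2136, 2761 and 2648 TPM in Control and 2083, 1638, 1396 and 1464 TPM in Mc1r LKO livers, a log2 ratio of the means of -0.53. All but mouse 141 of the Mc1r LKO livers were below the lowest Control liver. This sum contains the called gene Cyp3a11 and is not a separate result. Cyp3a11 alone was at 1207, 1392, 1539 and 1576 TPM in Control and at 1318, 1022, 702 and 529 TPM in Mc1r LKO livers. For Cyp3a25, the next in level, the groups overlapped. Cyp3a16, Cyp3a44 and Cyp3a57 had counts but were too low to test.

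The upstream sequence of Cyp3a11 is shown because it is the one called gene of a receptor target list for which a sequence was at hand. Among the RefSeq promoters of GRCm38.p6, 70 of the 89 genes had an entry. The sequence covers chr5:145879965-145880104 (minus strand, GRCm38.p6), the 5′ part of the 250 bases before the RefSeq start, cut where the counted gene model begins.
Cyp3a11: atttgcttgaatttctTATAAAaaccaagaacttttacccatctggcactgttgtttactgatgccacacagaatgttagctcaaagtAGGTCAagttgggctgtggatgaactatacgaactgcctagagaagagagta
Capitals mark AGGTCA, the hexamer that PXR, CAR, PPAR-alpha and other nuclear receptors bind in pairs, and TATAAA, each searched on both strands. AGGTCA lies at position -162 and TATAAA at position -234 from the RefSeq start. AGGTCA occurred in 19 of 80 promoter windows of P450 genes (23.8%) and in 14% of all 32851 windows of 250 bases, and TATAAA in 33.8% and 12.4%. These are matches of letters and not measured binding. The 80 windows came from 70 genes, of which some are near copies, so the windows are not independent.

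The Cyp4 families hydroxylate the terminal carbon of fatty acids and eicosanoids. Cyp4a14, a PPAR-alpha target that acts on medium- and long-chain fatty acids, was at 584, 180, 291 and 237 CPM in Control livers and at 757, 641, 657 and 325 CPM in Mc1r LKO livers. In 3 Mc1r LKO livers it exceeded every Control liver, while mouse 182 lay between Control mice 181 and 154. The means were 323 ± 180 and 595 ± 187 CPM (SD, n = 4 per group). The log2 fold change was 0.88 (SE 0.36), with an unadjusted p of 0.0336 and an adjusted p of 0.734 by edgeR. This call was lost on leaving out any one of the mice 159, 181, 193, 141, 156 or 157 (log2 fold change 0.69 to 0.84) and with DESeq2, and it was kept without mouse 182 (1.09) or mouse 154.

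Cyp4a10, the Cyp4a gene with the highest mean TPM, was at 449, 340, 501 and 319 CPM in Control and at 496, 429, 524 and 552 CPM in Mc1r LKO livers. Its log2 fold change was 0.31 (SE 0.15, unadjusted p = 0.0668 by edgeR), and the groups overlapped. Cyp4a10 shared 29.8% of its windows with Cyp4a31 and Cyp4a32. Cyp4a32 and Cyp4a31 had log2 fold changes of -0.22 (SE 0.21) and 0.01 (SE 0.24). Of the 4 genes of the PPAR-alpha list, 1 was called higher (against 2.64% of all genes) and 3 were fitted higher (against 47.9%). Their summed level was 1169, 583, 866 and 677 TPM in Control and 1296, 1116, 1219 and 863 TPM in Mc1r LKO livers. Mouse 154 stood above the other Control livers and mouse 182 below the other Mc1r LKO livers, so the group ranges overlapped. Ppara itself, which encodes the receptor, had a log2 fold change of -0.27 (SE 0.19).

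Of the other Cyp4 genes, Cyp4f15 and Cyp4f14 were the most abundant of Cyp4f. Cyp4f14, which inactivates leukotriene B4, was at 59.1, 80.9, 115 and 86.0 CPM in Control and at 84.1, 101, 86.8 and 210 CPM in Mc1r LKO livers. Mouse 182 stood well above the other 7 livers (log2 fold change 0.50, SE 0.30). Cyp4f15 was at 85.4, 121, 133 and 141 CPM in Control and at 108, 110, 84.4 and 146 CPM in Mc1r LKO livers, with overlapping groups (log2 fold change -0.10, SE 0.19). Cyp4v3, the mouse counterpart of a fatty acid hydroxylase gene mutated in a human crystalline retinal dystrophy, was at 304, 282, 370 and 346 CPM in Control and at 247, 240, 277 and 355 CPM in Mc1r LKO livers. The other 3 Mc1r LKO livers were below all Control livers, and mouse 182 was near the top of the Control range (log2 fold change -0.22, SE 0.14). Cyp4b1 was at 12.0, 13.7, 12.0 and 12.1 CPM in Control and at 13.1, 9.62, 11.9 and 7.0 CPM in Mc1r LKO livers, lowest in mouse 182 (log2 fold change -0.26, SE 0.18). Of the 6 tested Cyp4f genes, 4 were fitted higher (against 47.9% of all genes) and 2 lower. Of the 6, 0 were called (against 5.31% of all genes).

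**Figure D2:**
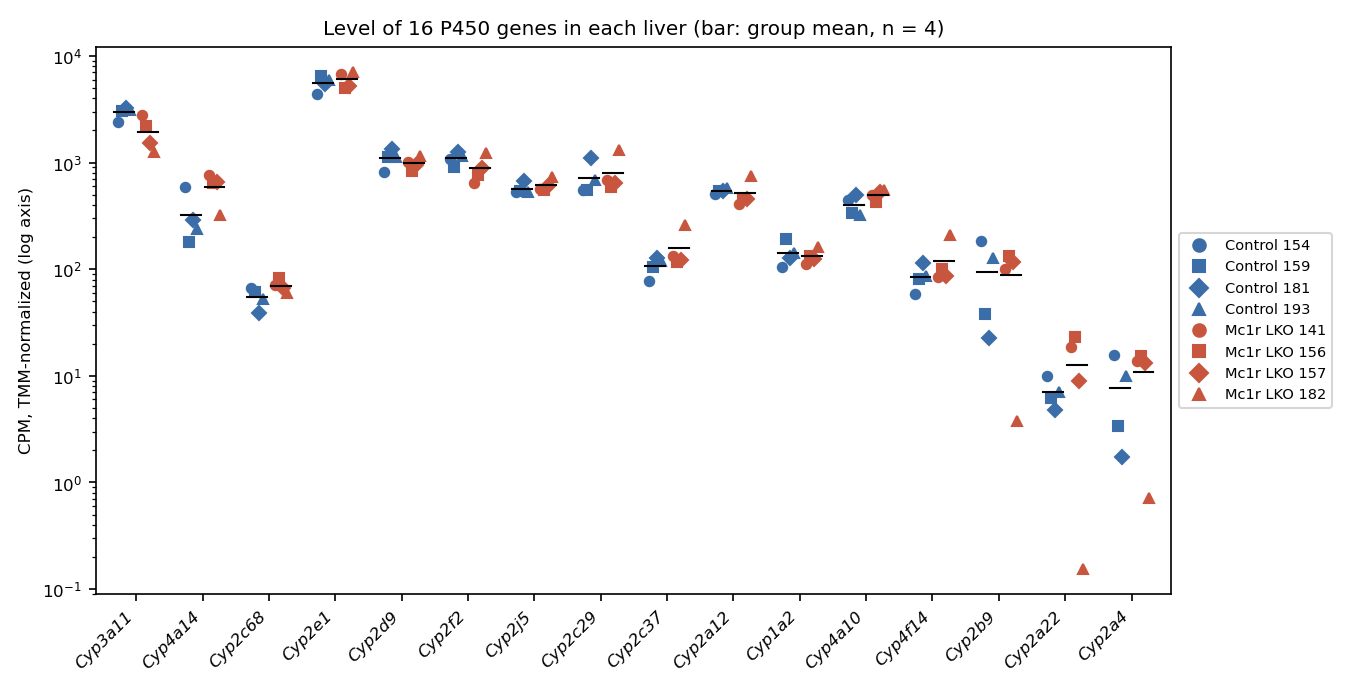
Level of 16 P450 genes in each liver, in TMM-normalized CPM on a log axis. Each point is 1 mouse (blue Control, red Mc1r LKO, with a marker per mouse) and each bar the mean of the 4 livers of a group. Cyp3a11 is lower and Cyp4a14 higher in 3 Mc1r LKO livers, and for Cyp2b9, Cyp2a22 and Cyp2a4 the liver of mouse 182 is the lowest of the 8.

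The Cyp2c genes, whose products include arachidonic acid epoxygenases, formed the largest subfamily, with 11 of 15 genes tested. Of these, 9 were fitted higher in Mc1r LKO livers (against 47.9% of all genes) and 2 lower, with a median log2 fold change of 0.17. Of the 11, 1 was called, in the higher direction (against 2.64% of all genes). This gene, Cyp2c68, was at 67.0, 60.6, 39.1 and 52.6 CPM in Control and at 71.8, 82.1, 66.8 and 60.4 CPM in Mc1r LKO livers. The groups overlapped, with mouse 181 lowest (log2 fold change 0.36, SE 0.16, unadjusted p = 0.0495, adjusted p = 0.740 by edgeR). The call did not survive leaving out mouse 181 (0.23), 193 (0.35), 141 (0.36), 156 (0.28) or 157 (0.39), nor library size only (0.31), upper quartile normalization (0.36) or a filter of at least 10 counts in every mouse (0.36). Cyp2c68 shared 43.3% of its windows with other Cyp2c genes, so its level is uncertain. Its neighbour and near copy Cyp2c67 was at 79.9 ± 3.94 CPM in Control and 95.1 ± 15.4 CPM in Mc1r LKO livers (SD, n = 4), with a log2 fold change of 0.25 (SE 0.12).

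Cyp2c29, the Cyp2c gene with the highest mean TPM and a CAR target, was 1 of 5 tested Cyp2c genes whose 2 highest levels were in mice 181 and 182. It was at 553, 555, 1093 and 687 CPM in Control and at 679, 594, 639 and 1302 CPM in Mc1r LKO livers. Its highest levels were in mouse 182 and mouse 181, of opposite genotypes, and the log2 fold change of 0.16 (SE 0.29) became -0.18 without mouse 182. Cyp2c54 was at 18.4, 36.4, 48.6 and 32.0 CPM in Control and at 36.5, 32.2, 32.2 and 109 CPM in Mc1r LKO livers. Here the log2 fold change of 0.64 (SE 0.42) was -0.01 without mouse 182. Cyp2c37, Cyp2c50 and Cyp2c70, of which the last makes muricholic bile acids, were also highest in mouse 182, at 261, 556 and 501 CPM. Their log2 fold changes were 0.56 (SE 0.26, unadjusted p = 0.0536 by edgeR), 0.10 (SE 0.25) and 0.35 (SE 0.36). Cyp2c38 had its lowest levels of 84.9 and 84.3 CPM in mice 181 and 182. The summed Cyp2c level was 1399, 1505, 2066 and 1830 TPM in Control and 1642, 1572, 1505 and 2768 TPM in Mc1r LKO livers.

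The upstream sequences of 4 Cyp2c genes are shown as 2 pairs of near copies, the called Cyp2c68 with Cyp2c67 and the pair Cyp2c37 and Cyp2c50, both highest in mouse 182. They cover chr19:39741102-39741351 (minus strand), chr19:39649052-39649292 (minus strand), chr19:39992174-39992423 (plus strand) and chr19:40089429-40089678 (plus strand) of GRCm38.p6, and capitals mark TATAAA.
Cyp2c68: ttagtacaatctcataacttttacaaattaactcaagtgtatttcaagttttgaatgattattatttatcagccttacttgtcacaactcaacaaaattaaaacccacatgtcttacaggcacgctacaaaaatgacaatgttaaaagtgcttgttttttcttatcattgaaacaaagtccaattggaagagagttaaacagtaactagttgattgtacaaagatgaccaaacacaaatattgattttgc
Cyp2c67: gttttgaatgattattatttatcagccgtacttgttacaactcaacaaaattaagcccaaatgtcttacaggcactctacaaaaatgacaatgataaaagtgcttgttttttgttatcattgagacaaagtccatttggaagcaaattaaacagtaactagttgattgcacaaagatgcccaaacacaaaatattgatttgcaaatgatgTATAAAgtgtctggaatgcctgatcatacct
Cyp2c37: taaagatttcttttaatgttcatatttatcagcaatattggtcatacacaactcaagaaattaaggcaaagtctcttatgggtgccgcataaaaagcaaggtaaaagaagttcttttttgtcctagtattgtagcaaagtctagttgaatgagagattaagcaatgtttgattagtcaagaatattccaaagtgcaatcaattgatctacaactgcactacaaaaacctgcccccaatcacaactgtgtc
Cyp2c50: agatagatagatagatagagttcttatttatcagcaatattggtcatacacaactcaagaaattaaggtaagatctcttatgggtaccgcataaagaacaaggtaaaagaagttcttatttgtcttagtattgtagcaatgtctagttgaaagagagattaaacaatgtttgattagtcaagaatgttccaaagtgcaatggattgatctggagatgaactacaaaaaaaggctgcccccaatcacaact
Over the windows of 250 bases, Cyp2c37 and Cyp2c50 were identical at 214 of 242 aligned bases (88.4%), and Cyp2c68 and Cyp2c67 at 187 of 201 (93%). Pairs of printed genes from different subfamilies gave 71.2% to 75% by the same alignment, which places gaps freely. None of the 4 windows held AGGTCA on either strand, and TATAAA was found only in Cyp2c67, at position -40. The RefSeq starts of the near copies are not at matching bases, so a motif inside one window can lie outside the other.

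The Cyp2d genes metabolize steroids and amine drugs. Cyp2d26 was at 887, 1020, 989 and 944 CPM in Control and at 963, 925, 917 and 1137 CPM in Mc1r LKO livers (log2 fold change 0.04, SE 0.10). Cyp2d9, a male-biased testosterone hydroxylase, was at 817, 1128, 1344 and 1125 CPM in Control and at 1012, 825, 951 and 1141 CPM in Mc1r LKO livers. Control mice held both its lowest and its highest level (log2 fold change -0.17, SE 0.16). Cyp2d22 stayed between 240 and 288 CPM over all 8 livers. Log2 fold changes of the 6 tested Cyp2d genes lay between -0.17 and 0.14, and 0 were called (against 5.31% of all genes).

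Cyp2e1 was at 4367, 6496, 5405 and 5998 CPM in Control and at 6778, 5000, 5255 and 7083 CPM in Mc1r LKO livers. The groups overlapped over most of their range (log2 fold change 0.12, SE 0.16). Cyp2f2, a periportal gene in mouse liver whose product activates naphthalene, was at 1070, 917, 1255 and 1146 CPM in Control and at 649, 769, 894 and 1221 CPM in Mc1r LKO livers. Below the lowest Control liver lay 3 Mc1r LKO livers, and mouse 182 was second only to mouse 181. Its log2 fold change was -0.31 (SE 0.18) with all mice and -0.50 (SE 0.14) without mouse 182, where the adjusted p by edgeR was 0.574. Cyp2j5, an arachidonic acid epoxygenase, was at 531, 544, 668 and 533 CPM in Control and at 562, 552, 598 and 730 CPM in Mc1r LKO livers, highest in mice 182 and 181 (log2 fold change 0.10, SE 0.12). Cyp2j6 and Cyp2j9 had log2 fold changes of -0.08 (SE 0.09) and -0.02 (SE 0.16).

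The genes with the widest ranges between livers were in Cyp2a and Cyp2b. Cyp2a12 and Cyp2a5, which hydroxylate testosterone and coumarin, were at 544 ± 29.4 and 294 ± 72.0 CPM in Control and at 518 ± 157 and 281 ± 48.4 CPM in Mc1r LKO livers (SD, n = 4). Cyp2a12 was at 508, 543, 544 and 580 CPM in Control and at 411, 451, 457 and 751 CPM in Mc1r LKO livers. All Control livers thus lay between mouse 182 and the other 3 Mc1r LKO livers (log2 fold change -0.07, SE 0.18). Cyp2b9, which is expressed mainly in female mouse liver, was at 185, 38.1, 22.7 and 127 CPM in Control and at 99.6, 133, 117 and 3.78 CPM in Mc1r LKO livers. The highest level was 49-fold above the lowest, and the log2 fold change of -0.08 had an SE of 0.85. Cyp2a4, also female-biased, was at 15.7, 3.35, 1.72 and 9.95 CPM in Control and at 13.8, 15.3, 13.2 and 0.715 CPM in Mc1r LKO livers. Mice 182, 181 and 159 held the 3 lowest levels of both genes. Cyp2a22 was at 9.94, 6.23, 4.79 and 7.13 CPM in Control and at 18.6, 23.1, 8.93 and 0.153 CPM in Mc1r LKO livers, again lowest in mice 182 and 181. Cyp2b13 was at 0 counts in mouse 182, whose limit of 3 counts corresponds to 0.153 CPM, and reached 3.63 CPM in mouse 193. The Cyp2a22 level of mouse 182 was at this limit. Cyp2b10, the standard CAR target, was at 0.364 to 1.96 CPM.

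The upstream sequence of Cyp2b9 (chr7:26173159-26173408, plus strand, GRCm38.p6) is shown because this gene spans the widest range among the P450 genes that reached 100 CPM in any liver, with AGGTCA at position -138 in capitals.
Cyp2b9: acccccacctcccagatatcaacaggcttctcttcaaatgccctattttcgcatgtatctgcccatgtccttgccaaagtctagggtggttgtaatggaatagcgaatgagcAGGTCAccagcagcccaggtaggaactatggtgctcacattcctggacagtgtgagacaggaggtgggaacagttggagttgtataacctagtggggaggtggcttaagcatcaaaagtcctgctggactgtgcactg
The 9 female-biased genes of the list, of which 4 were tested, summed to 308, 82.4, 51 and 207 TPM in Control livers. In Mc1r LKO livers they summed to 175, 227, 192 and 26 TPM. Cyp2b9 made up most of the sum except in mouse 182. It was at 253, 47, 29 and 175 TPM in Control and at 128, 169, 146 and 4.36 TPM in Mc1r LKO livers. Of the tested genes, 2 were fitted higher and 2 lower, and 0 were called (against 5.31% of all genes). The 4 male-biased genes summed to 1380, 1531, 1907 and 1706 TPM in Control and to 1501, 1308, 1446 and 1614 TPM in Mc1r LKO livers, so that mouse 181 was highest and mouse 182 the third highest.

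**Figure D3:**
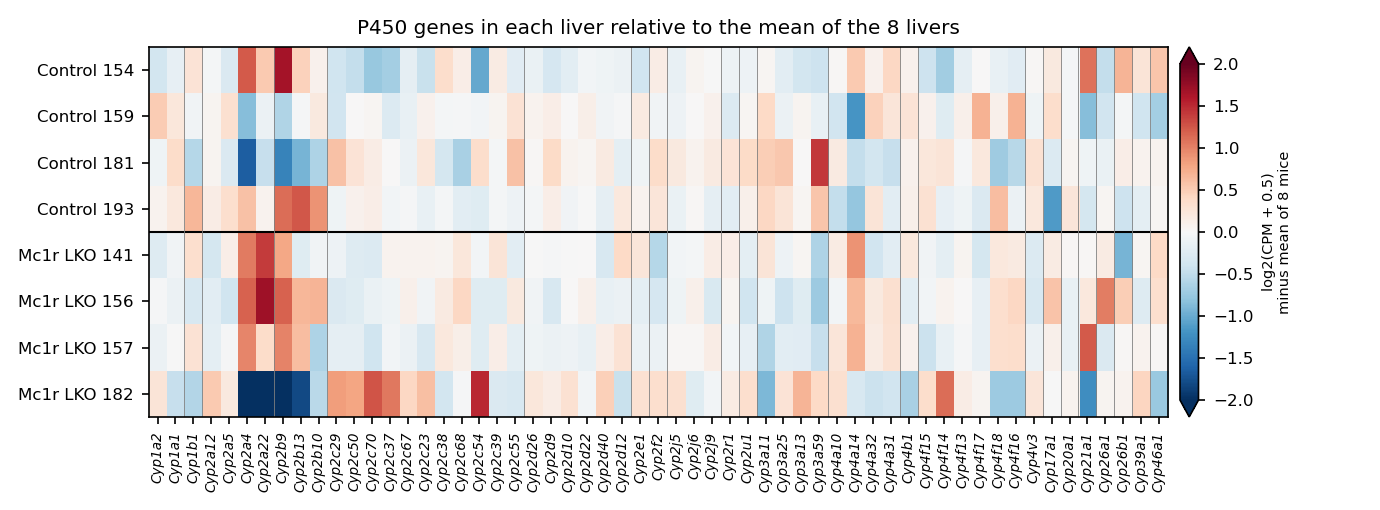
Heat map of log2(CPM + 0.5) minus the mean of the 8 livers for the 57 tested P450 genes, with 1 row per mouse, genes ordered by subfamily, and colours capped at 2 log2 units. The bottom row, mouse 182, combines strong blue for Cyp2a4, Cyp2a22, Cyp2b9 and Cyp2b13 with red for most Cyp2c genes and Cyp4f14, and the row of Control mouse 181 shares much of this pattern.

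Mouse 182 held an extreme level more often than any other. It had the highest level for 19 of the 57 genes (33.3%, against 20.2% of all genes tested) and the lowest for 18 (31.6%, against 21.7%). Control mouse 181 was highest for 11 genes (19.3%, against 11.4%), and Control mouse 154 lowest for 17 (29.8%, against 10.9%). Mice 181 and 182 together held the 2 highest levels of 15 genes (26.3%, against 12.6% of all genes), among them Cyp2c29, Cyp2c50, Cyp2c54, Cyp2c70, Cyp2d9, Cyp2f2, Cyp2j5, Cyp3a25, Cyp4f14 and Cyp4v3. They held the 2 lowest of 10 genes (17.5%, against 11.7%), among them Cyp2a4, Cyp2a22, Cyp2b9 and Cyp2b13. Mice 182 and 181 also had the 2 highest values on the first principal component of the whole transcriptome, at 59.3 and 27.8. The other 6 livers were between -28.2 (Control mouse 159) and -7.03. On the second component, mouse 159 was at -40.5, and mice 182 and 181 were at -8.4 and -3.45. Over all genes tested, mouse 159 was highest for 18.1% and lowest for 15.8%, and mouse 181 for 11.4% and 10.8%. The share of counts on the mitochondrial chromosome was 6.40% and 6.57% in mice 182 and 181 and ran from 6.39% to 7.17% over the 8 livers.

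Without mouse 182, 10 P450 genes were called at the unadjusted threshold, beside 6.81% of all genes. Higher in Mc1r LKO livers were 4 (against 3.72% of all genes), namely Cyp2a22 (log2 fold change 1.25, SE 0.32), Cyp4a14 (1.09, SE 0.32), Cyp26a1 (0.65, SE 0.29) and Cyp2c68 (0.43, SE 0.16). Lower were 6 (against 3.09%), namely Cyp3a59 (-1.16, SE 0.38), Cyp2f2 (-0.50, SE 0.14), Cyp3a11 (-0.44, SE 0.19), Cyp2u1 (-0.37, SE 0.13), Cyp4v3 (-0.35, SE 0.11) and Cyp2a12 (-0.30, SE 0.09). Their adjusted p-values by edgeR were all at least 0.574. With mice 181 and 182 both left out, 9 were called, 4 higher and 5 lower (against 6.46%, 3.26% and 3.20% of all genes). Cyp4a10 (0.39, SE 0.14) was then called, and Cyp3a11 and Cyp26a1 were not. Cyp2a4, Cyp2a22, Cyp26a1, Cyp3a59 and Cyp2u1 were picked out after their values were seen.

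**Figure D4:**
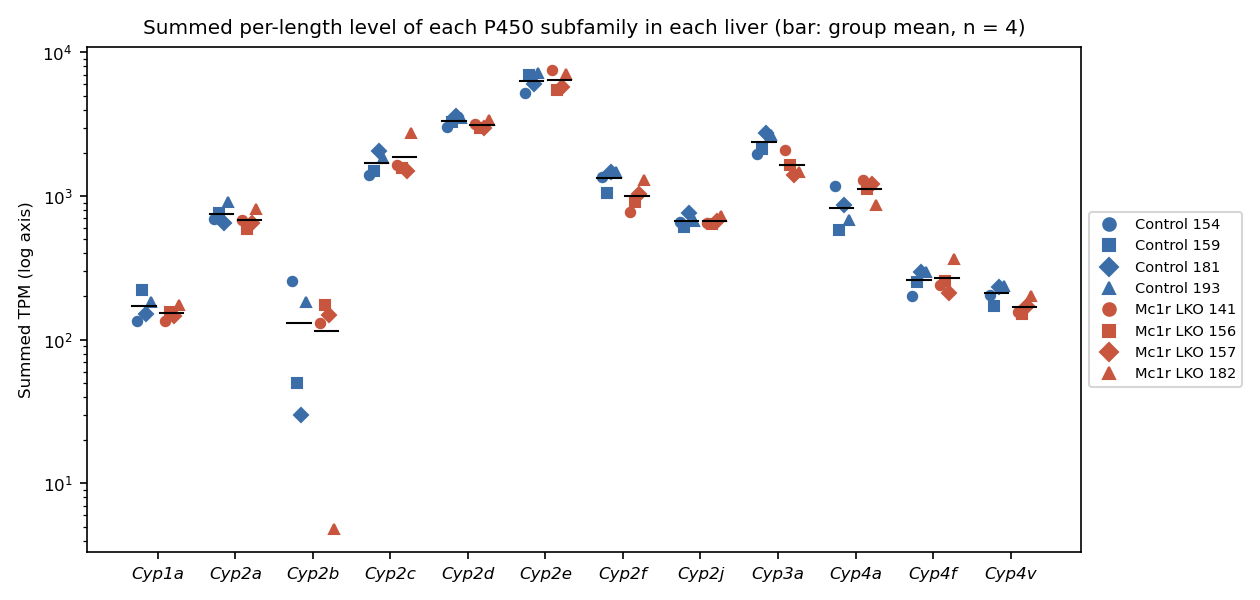
Summed TPM of 12 P450 subfamilies in each liver on a log axis, with 1 point per mouse and a bar at each group mean. The Cyp2d sums run from 2964 to 3585 TPM and the Cyp2e sums from 5185 to 7549 TPM. The Cyp3a sums, which contain the called gene Cyp3a11, lie below all Control livers in 3 Mc1r LKO livers. The Cyp2b sum runs from 4.78 TPM in mouse 182 to 257 TPM in mouse 154.

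The P450 genes of retinoid, vitamin D, oxysterol and steroid hormone metabolism were expressed at low levels. Cyp26a1 and Cyp26b1, which clear retinoic acid, were at 8.72 ± 1.55 and 14.1 ± 4.76 CPM in Control and at 13.0 ± 5.80 and 12.7 ± 4.81 CPM in Mc1r LKO livers (SD, n = 4). The Cyp26a1 difference (log2 fold change 0.56, SE 0.27) was 0.21 without mouse 156, which was at 21.4 CPM. Cyp2r1, a vitamin D hydroxylase, had a log2 fold change of 0.13 (SE 0.14), Cyp39a1, an oxysterol hydroxylase, of 0.14 (SE 0.18) and Cyp46a1, which hydroxylates cholesterol, of -0.01 (SE 0.31). Cyp17a1 and Cyp21a1, which encode steroid hydroxylases, were at 11.4 to 38.1 and 1.43 to 10.2 CPM, while Cyp11a1, Cyp11b1, Cyp11b2 and Cyp19a1 had no count in any liver. The 5 adrenal cortex markers summed to at most 2.47 TPM. The remaining genes without any count were Cyp24a1, Cyp2b19, Cyp2b23, Cyp2c65, Cyp2c66, Cyp2j7, Cyp2j12, Cyp2t4, Cyp2w1, Cyp4a29 and Cyp4x1. A further 17 genes had counts but stayed at or below 1.3 CPM. Exact permutation tests of their CPM gave 0 with p under 0.05, the smallest being 0.0857, where 4 against 4 livers allow 0.0286.

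Genes that serve the P450 enzymes were read from the same fit. Of 7 electron donors, 6 were fitted higher (against 47.9% of all genes) and 0 were called (against 5.31%). Por, the oxidoreductase, had a log2 fold change of 0.34 (SE 0.20). Of 11 genes of haem synthesis and breakdown, 1 was called (against 5.31% of all genes). This was the haem oxygenase gene Hmox1, which was lower (-0.44, SE 0.18, unadjusted p = 0.0363 by edgeR). Alas1, the first enzyme of haem synthesis, had a log2 fold change of 0.34 (SE 0.23). Of 27 tested receptors and transcription factors that control P450 genes, 3 were called higher and 1 lower (against 2.64% and 2.66% of all genes), and 3 did not overlap between groups (against 4.16%). Ahr, the aryl hydrocarbon receptor, was at 27.0 to 36.7 CPM in Control and 39.5 to 46.5 CPM in Mc1r LKO livers, without overlap (log2 fold change 0.39, SE 0.11, unadjusted p = 0.0044, adjusted p = 0.734 by edgeR), while its 3 targets among the P450 genes were all fitted lower. Cebpb (0.61, SE 0.22) and Foxa3 (0.84, SE 0.29) also had levels that did not overlap, with Foxa3 at 85.5 CPM in mouse 182 and at most 37.1 CPM elsewhere, and Arnt, the partner of the aryl hydrocarbon receptor, was lower (-0.28, SE 0.10). Nr1i2 and Nr1i3, which encode PXR and CAR, had log2 fold changes of 0.19 (SE 0.11) and -0.04 (SE 0.15). Of the 10 CAR and PXR targets among the P450 genes, 5 were fitted higher (against 47.9% of all genes) and 5 lower. Of the 10, 1 was called, in the lower direction (against 2.66% of all genes).

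Markers of other liver cells also differed in level between the livers. Of 9 Kupffer cell and macrophage markers, 0 were fitted higher in Mc1r LKO livers (against 47.9% of all genes). Of the 9, 1 was called lower (Csf1r, -0.77, SE 0.32, against 2.66% of all genes). The summed level of these 9 markers was 357 to 784 TPM in Control and 224 to 574 TPM in Mc1r LKO livers, lowest in mouse 182. The 6 cholangiocyte markers summed to 30.2 TPM in mouse 182 and to 79.3 to 363 TPM elsewhere. The 7 sinusoidal endothelial markers (1 fitted higher) summed to 66.2 TPM in mouse 182, 93.7 TPM in mouse 181 and up to 126 TPM elsewhere. The 7 stellate cell markers (2 fitted higher) summed to 72.7 TPM, 86.4 TPM and up to 190 TPM in the same order. In either list, 0 were called (against 5.31% of all genes). The sums of the Kupffer cell, cholangiocyte, endothelial and stellate lists were each lowest in mouse 182 and second lowest in mouse 181. The 6 lymphocyte markers summed to at most 3.44 TPM. All 7 hepatocyte markers were fitted higher in Mc1r LKO livers (against 47.9% of all genes). Of these, 1 was called, Tat (0.88, SE 0.37, against 2.64% of all genes called higher). Alb was not called (0.11, SE 0.14) and was at 51819 to 74793 CPM. The 5 kidney tubule markers had no count, and the 6 pancreatic acinar markers summed to at most 0.499 TPM. The part of these cells in the levels of the P450 genes was not tested.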

How the data were processed

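Liver RNA of 8 mice was sequenced and the authors deposited 1 table of raw counts per gene for each mouse. Per the labels and the file headers, reads were trimmed with Trim Galore 0.6.6, aligned with STAR 2.7.6a and counted with featureCounts of Subread 2.0.1 as stranded read pairs on a GRCm38 Ensembl annotation, without reads that matched several genes equally well. The deposited counts are not normalized. Symbols were attached by Ensembl identifier (55141 of 55487 matched). Counts were filtered with filterByExpr by group, TMM-normalized and tested in edgeR 4.0.16 (R 4.3.3) with the quasi-likelihood test, 4 Control against 4 Mc1r LKO mice, over 13400 genes. The call at an unadjusted p under 0.05 and a log2 fold change of 0.25 or more in size follows the study's methods, while its results name the same limit for adjusted p. The edgeR p-values weigh the difference between groups against the spread between mice and the precision of counting. Total counts of 10773151 to 24763375 per library set that precision. TPM were computed from counts and exon length. The fit was tested on simulated data. DESeq2 1.42.0, limma 3.58.1 voom, other normalizations and filters, and leaving out mice were tried as alternatives. No per-sample column was left unused.

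The members, lists and alternatives were chosen with earlier results of these data known. Genes given in every mouse were those called or not overlapping between groups, the most abundant member of each main subfamily, and the largest log2 fold change in each subfamily of at least 5 tested members. Cyp2a4, Cyp2a22, Cyp26a1, Cyp3a59 and Cyp2u1 were picked after their values were seen, and other members are given as part of the whole set. Upstream sequences came from RefSeq (GRCm38.p6) and were aligned with Biopython 1.88, and shared windows of 50 bases were counted in GENCODE M21 transcripts on the sense strand. SE is the edgeR log2 fold change divided by the square root of its quasi-likelihood F statistic.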

Additional observations from a re-analysis of the deposited data

Results flagged for a closer look

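In 134 groups of 4 livers, the highest or lowest liver was compared with its nearest neighbour, and 14 stood apart by Dixon's 95% criterion, where about 1 in 20 groups (6.7) would by chance. Of the 14, 11 were in mouse 182. In that mouse Cyp2c29 (1302 CPM), Cyp2c50 (556 CPM), Cyp2c70 (501 CPM), Cyp2c37 (261 CPM), Cyp2c54 (109 CPM), Cyp2a12 (751 CPM), Cyp4f14 (210 CPM) and Cyp3a59 (49.8 CPM) were above the other 3 Mc1r LKO livers, as was the summed Cyp2c level (2768 TPM). Cyp2a4 (0.715 CPM) and Cyp4f18 (0.511 CPM) were below them. Cyp2b9 at 3.78 CPM did not meet the criterion. Among Control livers, mouse 181 was high for Cyp2j5 (668 CPM), mouse 159 for Cyp4b1 (13.7 CPM), and mouse 154 was low for Cyp3a13 (77.1 CPM). The genes of a subfamily share a library and are not independent. What set mouse 182 apart was not tested.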

How the results depend on the processing

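The count of 3 P450 genes called at the unadjusted threshold was 5 with the edgeR likelihood ratio test, 5 with library size only, 8 without a filter on low counts (74 genes tested), 8 with the leading component of the residuals in the fit, 9 without mice 181 and 182, and 0 where a log2 fold change of 1 or more in size was asked for. Leaving out 1 mouse gave 2 to 10. Of all genes, 5.31% were called in the main fit, 4.99% with library size only and 6.46% without mice 181 and 182. Without mouse 182, where 10 P450 genes were called, the share was 6.81%. For the other alternatives the share over all genes was not taken. A change in their counts therefore cannot be told from a change over the whole transcriptome. With library size only, 1 was higher and 4 lower, against 2 and 1 with TMM. The median log2 fold change of 0.038 ran from -0.033 (without mouse 181) to 0.067 on leaving out 1 mouse. The count at an adjusted p under 0.05 was 0 under every alternative run. On leaving out 1 mouse, the sign of genes that were not called turned for Cyp1a2 (-0.20 to 0.10), Cyp2a12 (-0.30 to 0.03), Cyp2b9 (-0.40 to 0.50), Cyp2c29 (-0.18 to 0.43), Cyp2c54 (-0.01 to 0.87), Cyp2d26 (-0.03 to 0.08) and Cyp4f15 (-0.25 to 0.02). It also turned for Cyp2a22 with limma-voom (-0.61), for Cyp2b9 without mice 181 and 182 (0.00) and for Cyp2d26 with library size only (-0.01) and without mice 181 and 182 (-0.02). Over 22 genes, those named by rule or after their values were seen except Cyp2a4, 332 of 395 values kept direction and side of the threshold. Of the other values, 18 lost the call, 32 gained it and 13 changed sign. The causes were not tested. No paired analysis was possible because the mouse numbers are not shared between the groups. Genes near 1 CPM rest on few counts, and those with near copies on the reads that matched 1 gene alone.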
